A study of Rattus norvegicus with 3 samples.

Results

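The cortex of 1 rat thymus section was divided by distance to the capsule, and the thymocyte labels of its bins were compared along that depth. The section, 10 µm thick, came from the middle portion of the thymus of a Lewis rat, an inbred strain, and held both lobes. The series gives an age of 8 weeks and names no treatment. It was measured by Stereo-seq, which captures RNA on a chip with a fine grid of spots, and the spots were joined into square bins of 20 coordinate units, nominally 10 µm wide. The series also holds a stromal and a thymocyte single-cell library from Lewis rats of the same age. The thymocyte library is used here to describe the labels by marker genes. It was itself part of the reference from which the authors derived the spatial labels, beside published mouse data. Each group is 1 sample, so no test was possible, no p-value is given, and intervals are 95% intervals for counting error only.

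Of 599178 bins, 413829 were assigned to the cortex by the authors, and these were taken in fixed steps of the deposited distance to the capsule. The deposited distance equals the distance to the nearest bin drawn as capsule. That drawn line follows the outer surface and also the septa between lobules, so that depth here means distance from either. The step nearest to the capsule, 0 to 50 µm, holds 0 cortex bins, because every bin within 50 µm belongs to the authors' capsular area. The other 4 steps held 77530 bins at 50 to 100 µm, 119240 at 100 to 200 µm, 141774 at 200 to 400 µm and 75285 over 400 µm. A first label was given to 409180 of the cortex bins, and every cortex bin without one had under 100 UMIs (unique molecular identifiers, each counting 1 captured RNA molecule).

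T cell precursors enter the thymus near the border of cortex and medulla and move outwards to the subcapsular cortex as double-negative cells (DN), which carry neither CD4 nor CD8. There they rearrange the T cell receptor beta chain, divide, and turn into double-positive cells (DP), first cycling (DP-P) and then resting, which fill the cortex and rearrange the alpha chain. A DP cell whose receptor binds peptide and MHC on cortical epithelium is signalled (here Pre DP-sig and DP-sig), becomes an immature CD4 or CD8 cell and moves to the medulla. Depth in the cortex is therefore read in the field as a rough axis of maturation.

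The stage labels were first compared with marker genes in the thymocyte library, where the authors' annotation gives the same names to single cells. These names are deposited as projected labels, drawn from the expression of the same cells. Marker levels therefore describe the labels and are not an independent check of them. Levels are in CPM, the UMIs of a gene relative to all UMIs of a label. Rag1, which cuts the receptor genes for rearrangement, stood at 298 CPM in DN, 367 in DP-P, 1952 in DP, 154 in Pre DP-sig and 34.9 in DP-sig. It was thus highest in the label DP. Top2a, a topoisomerase of dividing cells, stood at 464 CPM in DN, 1798 in DP-P and 6.45 in DP, and Mki67 at 450, 1114 and 13.4. Both cell-cycle genes were highest in DP-P, with DN next. Cd69, an early activation marker of signalled cells, stood at 5.55 CPM in DP, 72.5 in Pre DP-sig and 193 in DP-sig. Nr4a1, an immediate target of receptor signals, stood at 24.1 CPM in DP and 338 in DP-sig. Ccr7, the receptor that draws cells to the medulla, stood at 2.33 CPM in DP-sig and 18.3 in the immature labels, and Cd40lg at 3.88 and 66.0. Both were higher still in the mature labels, at 39.4 and 94.2 CPM. Of 9 listed genes of signalled cells, 7 were highest in DP-sig among the 6 stages, and Itm2a and Tox2 were highest in the immature labels, Itm2a at 754 CPM against 474 in DP-sig. Of 7 listed genes of immature cells, 5 were highest in the immature labels, and Gata3 and Cd28 were highest in DP-sig, at 465 and 875 CPM against 208 and 457.

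The label DN was less distinct. Ptcra, the surrogate chain that pairs with the beta chain, stood at 272 CPM in DN, 265 in DP-P and 207 in DP. Hes1, a Notch target, stood at 84.7 CPM in DN, 61.7 in DP-P and 3.22 in DP, and Notch1 at 57.7, 49.3 and 16.2. Il2ra, the CD25 chain used to define a DN stage, went the other way, with 3.51 CPM in DN (38 UMIs) against 67.5 in DP. Cd34, a marker of the earliest precursors, had 0 UMIs in DN. Cells labelled DN also held the coreceptor transcripts Cd8a, at 702 CPM against 1497 in DP, and Cd4, at 150 against 1350. Of 9 listed DN genes, 7 were highest in DN among the 6 stages, against 7 of 8 cell-cycle genes in DP-P. DN is therefore used below as the authors' label only.

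Listed genes of other cell types were partly present in these cells. The summed level of Lyz2, Cd68 and C1qa, a myeloid list, was between 1.29 and 3.33 CPM over the 6 stages. Col1a1, a collagen chain of fibroblasts, was at 0 UMIs in 4 of the stages and at most 0.833 CPM, but the summed fibroblast list was between 81.2 and 218 CPM, most of it Dpp4, at 195 CPM in Pre DP-sig. Ctsl, a protease on the list of cortical epithelium, stood at 131 CPM in DN, while Psmb11, which defines that epithelium, had 0 UMIs in all 6 stages. Cd79a, a B cell receptor chain, stood at 19.0 CPM in the immature labels and at most 0.833 in the other stages. The part of these genes in the spatial labels was not tested. Cells of different stages differed widely in RNA content. The median was 23190 UMIs per cell in DN, 15439 in DP-P, 3206 in DP, 3484 in Pre DP-sig, 4010 in DP-sig and 5737 in the immature labels.

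UMIs per bin, nearness of the medulla and edges without a drawn capsule also moved with depth in the section. The median of labelled bins was 261 UMIs at 50 to 100 µm, 292 at 100 to 200 µm, 324 at 200 to 400 µm and 335 over 400 µm. The deeper bins thus held more RNA. Bins within 50 µm of the medulla made up 2.39% of the outermost step and 16.9% of the deepest. Of the deepest step, 3643 bins lay on detached fragments of tissue, and 5.24% of its labelled bins lay nearer to the outside of the tissue than to the drawn capsule, against 1.13% of the outermost step. At the latter bins, whose median was 166 UMIs in the deepest step, the distance to the drawn capsule does not give the distance to the surface. Because label shares differed with UMIs, the values below are shares standardised to the same mix of 10 strata of UMIs, called matched, beside shares as counted.

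**Figure D1:**
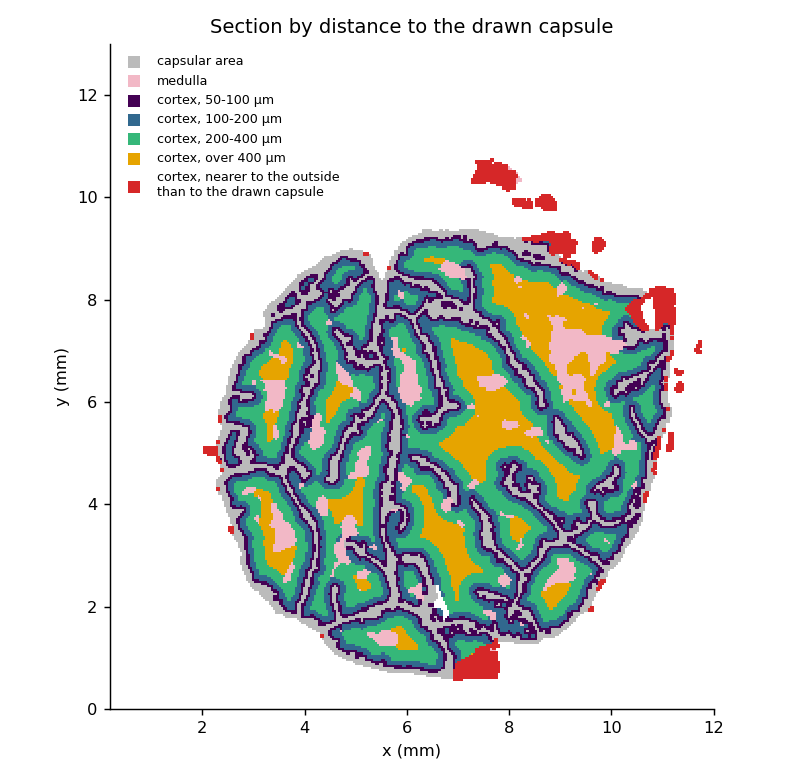
Map of the section in millimetres, with 1 square per 40 µm coloured by area and, within the cortex, by distance to the drawn capsule. Grey lines of the capsular area run between the lobules as well as around the section, and the red squares mark cortex that lies nearer to the outside than to the drawn capsule.

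DN labels were less frequent with depth once UMIs were matched. DN was the first label of 194664 cortex bins, 47.6% of those labelled, whereas DN made up 4.56% and DP 60.9% of annotated cells in the thymocyte library. A DN share of bins is therefore not a share of cells. Its matched share was 52.2% (51.9 to 52.6) at 50 to 100 µm, 48.8% at 100 to 200 µm, 46.8% at 200 to 400 µm and 43.5% (43.2 to 43.9) over 400 µm. The share was lower at every step, and the ratio of the deepest to the outermost step was 0.834 (0.825 to 0.843). As counted, the shares were 47.9%, 47.8%, 48.1% and 45.8%, which is close to level. The matched and counted values differ because the outer bins held fewer UMIs and the DN share was higher in bins with more UMIs. With the labels from DN to DP-sig as the total, a setting chosen after seeing the data, the matched ratio was 0.902 (0.893 to 0.911).

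The dependence on UMIs was larger than that on depth. At 50 to 100 µm the DN share was 25.9% in the lowest stratum (100 to 173 UMIs) and 71.0% in the highest (484 UMIs or more). Over 400 µm it was 21.3% and 55.7%. In all 10 strata the deepest step had the lower share, and in 6 strata the share was lower at each successive step. In the plot of shares by UMI stratum, the 4 lines for DN lie closest together in the lowest strata and farthest apart in the highest. Cells labelled DN had the highest median UMIs of the 6 stages in suspension, and the part of RNA content in the spatial label was not tested.

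**Figure D2:**
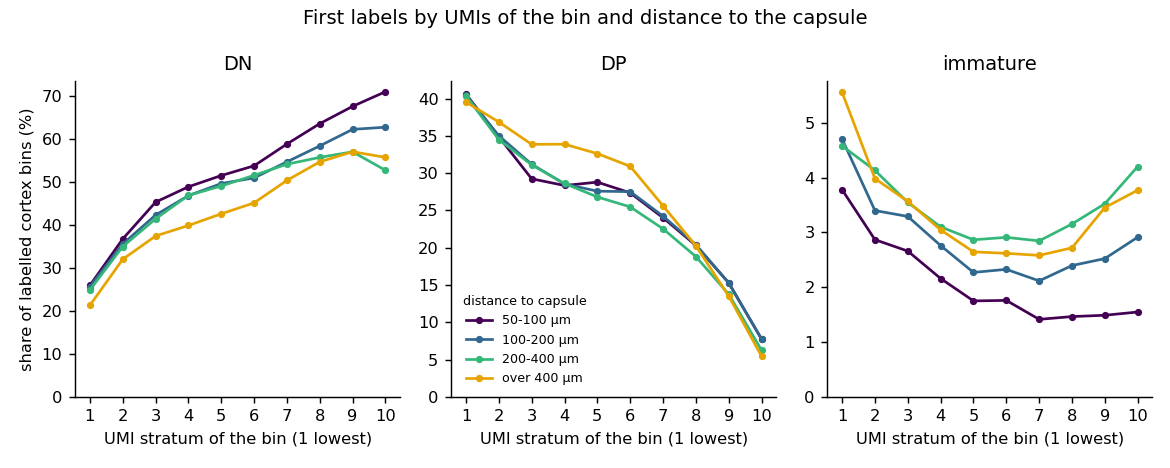
Share of labelled cortex bins (%) with the first label DN, DP or immature, against the UMI stratum of the bin (1 lowest, 10 highest), with 1 line per distance to the capsule. DN runs from 25.9% to 71.0% at 50 to 100 µm, DP runs the opposite way, and the immature share is lowest at 50 to 100 µm in every stratum.

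In finer steps the DN share had its maximum just outside the cortex. In the capsular area the matched share was 35.6% on the drawn line, 47.4% up to 25 µm from it and 55.4% at 25 to 50 µm. Epithelial first labels made up 13.5% of bins on the drawn line and 1.48% at 25 to 50 µm. In the cortex the DN share was 53.0% at 50 to 75 µm and 39.8% beyond 600 µm. Of the 17651 labelled bins beyond 600 µm, 1298 lay on detached fragments, and that share was not recomputed without them. With the whole capsular area in place of the outermost step, at 49.4%, the ratio was 0.881 (0.872 to 0.889).

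DP labels, the resting double-positive cells, showed no steady order with depth. DP was the first label of 105076 cortex bins (25.7%). The matched shares were 25.7%, 25.8%, 24.9% and 27.3% from the outermost step to the deepest, and the counted shares 28.4%, 26.6%, 23.5% and 25.6%. The matched ratio of 1.06 (1.04 to 1.08) was at 0.901 without matching and 0.968 (0.953 to 0.982) with 200 to 400 µm as the deepest step. It was 0.894 (0.868 to 0.920) left and 1.28 (1.25 to 1.31) right of the median x coordinate, so the sides of the section differed in direction. At 50 to 100 µm the DP share was 40.6% in the lowest UMI stratum and 7.73% in the highest.

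DP-P labels, named for cycling double-positive cells, were first in few bins and had no steady order with depth after matching. DP-P was the first label of 8966 cortex bins (2.19%), whereas it made up 9.92% of annotated cells in the thymocyte library. Its share of bins, like that of DN, is therefore not a share of cells. As counted it made up 2.73% (2.61 to 2.85) at 50 to 100 µm and then 2.07%, 2.04% and 2.11%. The matched shares were 2.36%, 1.98%, 2.20% and 2.34%, a ratio of 0.993 (0.928 to 1.06) between the end steps. The intervals of the first step (2.25 to 2.46) and the second (1.90 to 2.05) do not overlap. The outermost step was higher in 5 strata and the deepest in 5. The capsular area had more DP-P, with 2.84% matched at 25 to 50 µm and 1.35% on the drawn line, and the ratio to the area as a whole was 0.871 (0.819 to 0.926).

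**Figure D3:**
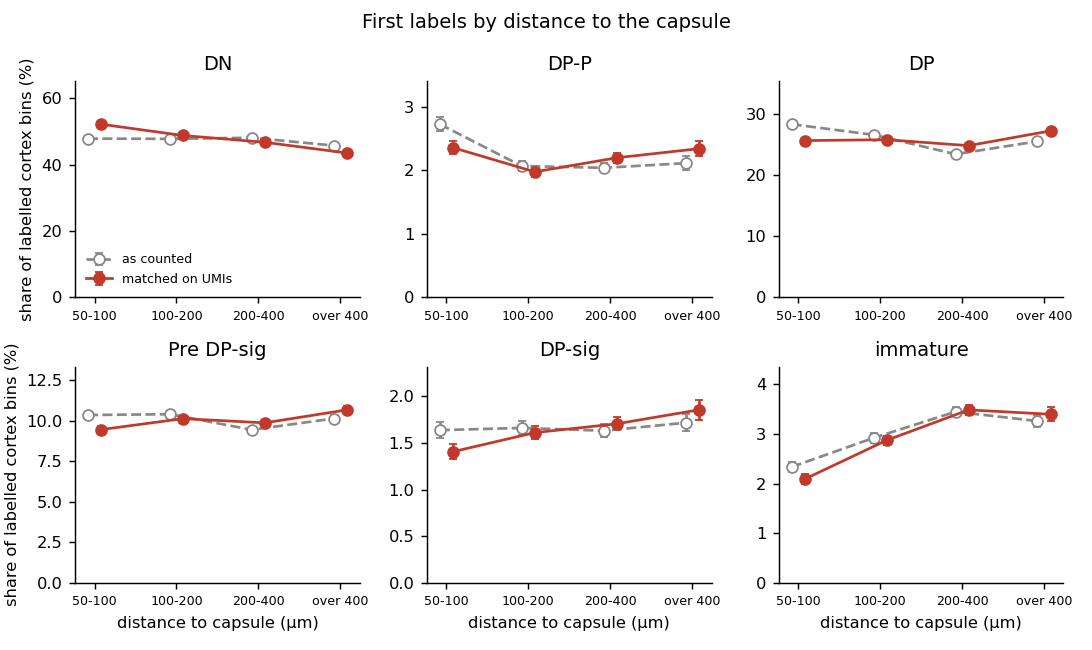
Share of labelled cortex bins (%) with each first label, against distance to the capsule (µm), as counted (open grey circles) and matched on UMIs (filled red circles), with 95% intervals for counting error. DN is lower and immature higher in the deepest step than at 50 to 100 µm, while DP and DP-P change order between steps.

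Labels of signalled cells were slightly more frequent in the deep cortex once UMIs were matched. Pre DP-sig was the first label of 41011 bins (10.0%), with matched shares of 9.46%, 10.1%, 9.88% and 10.7% from the outermost step inwards. Its ratio was 1.13 (1.09 to 1.16), and 0.979 without matching, with an interval that holds 1. DP-sig was the first label of 6778 bins (1.66%), with matched shares of 1.41%, 1.61%, 1.71% and 1.86%, higher at every step. Its ratio was 1.32 (1.22 to 1.43), the deepest step being higher in all 10 strata. As counted, DP-sig was level, at 1.64%, 1.66%, 1.63% and 1.72%. Both labels were rarely confident in the deposited table, with 20.1% of Pre DP-sig and 13.4% of DP-sig bins called confident against 56.9% of DN and 58.0% of DP bins. With confident first labels only, the ratio was 1.26 (1.17 to 1.36) for Pre DP-sig and 2.07 (1.64 to 2.60) for DP-sig. Other settings gave ratios below 1. Pre DP-sig was at 0.923 (0.892 to 0.956) in segmented cell bins. DP-sig was at 0.992 (0.704 to 1.40) when matched on UMIs and 1 mm tile, with an interval that holds 1.

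Immature labels were more frequent in the deep cortex. The 4 immature labels together were first in 12492 bins (3.05%). Their matched share was 2.09% (1.99 to 2.19) at 50 to 100 µm, 2.87% at 100 to 200 µm, 3.49% at 200 to 400 µm and 3.40% (3.26 to 3.54) over 400 µm. The ratio of deepest to outermost was 1.62 (1.52 to 1.73), and 1.40 (1.31 to 1.48) without matching. The deepest step was higher in all 10 strata. Between 200 to 400 µm and over 400 µm the intervals overlap.

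Each of the immature labels had a higher share in the deepest than in the outermost step. The matched ratio was 2.03 (1.72 to 2.38) for Immature CD4-2, 1.59 (1.36 to 1.86) for Immature CD8-2, 1.56 (1.32 to 1.85) for Immature CD4-1 and 1.54 (1.41 to 1.68) for Immature CD8-1. These intervals overlap in part, and the differences between the labels were not tested. Immature CD8-1 was the most frequent, in 6155 bins, with matched shares of 1.12%, 1.44%, 1.64% and 1.73% from the outermost step inwards. Immature CD4-2 was also higher at each step. Immature CD8-2 was highest in the step before the deepest, with matched shares of 0.356%, 0.513%, 0.692% and 0.565%. The intervals of its inner steps, 0.648 to 0.735 and 0.510 to 0.621, do not overlap. Immature CD4-1 was highest in the same step, at 0.542% against 0.480% in the deepest, with overlapping intervals. Only 11.8% of bins with an immature first label were called confident, with 9.03% at 50 to 100 µm and 13.5% over 400 µm. As counted, a second label of non-cortical epithelium was on 13.5% of immature bins at 50 to 100 µm and 29.7% over 400 µm. Of these bins, 74.5% and 53.9% had only 1 label, so any second label was more frequent in the deepest step. Their medians were 216 and 327.5 UMIs. The same second label was on 8.13% and 12.6% of DN bins and on 10.1% and 21.0% of DP-sig bins. These shares were not matched on UMIs.

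Labels of mature cells, AgoSel1, AgoSel2, regulatory T cells and medullary epithelium also had higher shares in the deepest than in the outermost step. The 4 mature labels had matched shares of 1.58%, 2.12%, 2.83% and 2.93%, a ratio of 1.85 (1.73 to 1.99). The labels AgoSel1 and AgoSel2 had ratios of 1.62 (1.48 to 1.77) and 1.37 (1.27 to 1.49), and regulatory T cells (Treg) 1.85 (1.65 to 2.07). AgoSel2 was highest at 200 to 400 µm, with matched shares of 1.56%, 2.09%, 2.48% and 2.14%. First labels of medullary epithelium had matched shares of 0.862% at 50 to 100 µm and 1.68% over 400 µm. Cortical epithelium (cTEC) was first in 0.638% and 0.515%, a ratio of 0.808 (0.703 to 0.927). As a second label and as counted, cTEC was on 14.6% of bins at 50 to 100 µm and 17.5% over 400 µm. Bins with only 1 label made up 72.4% and 59.3% of these steps, so any second label was more frequent in the deepest step. Second labels were not matched on UMIs.

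By distance to the medulla, the end steps differed more than by distance to the capsule for DN, DP, DP-P, DP-sig and immature labels, and not for Pre DP-sig. The immature share, matched on UMIs, was 6.96% within 50 µm of the medulla, 3.81% at 50 to 100 µm, 2.53% at 100 to 200 µm, 2.24% at 200 to 400 µm and 2.03% beyond 400 µm. The nearest was 3.42 times the farthest (3.22 to 3.64). The mature share was 7.22% nearest and 1.28% farthest, a ratio of 5.63, and the DP-sig share 2.81% and 1.42%, a ratio of 1.98 (1.81 to 2.17). DN stood at 32.5% within 50 µm, 46.6% at 50 to 100 µm and between 50.4% and 51.5% farther out. DP stood at 19.9% nearest and 27.5% farthest. Pre DP-sig stood at 10.7% nearest and 9.69% farthest, a ratio of 1.11 (1.06 to 1.15), close to its ratio by depth. DP-P stood at 1.95% nearest and 2.32% farthest.

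**Figure D4:**
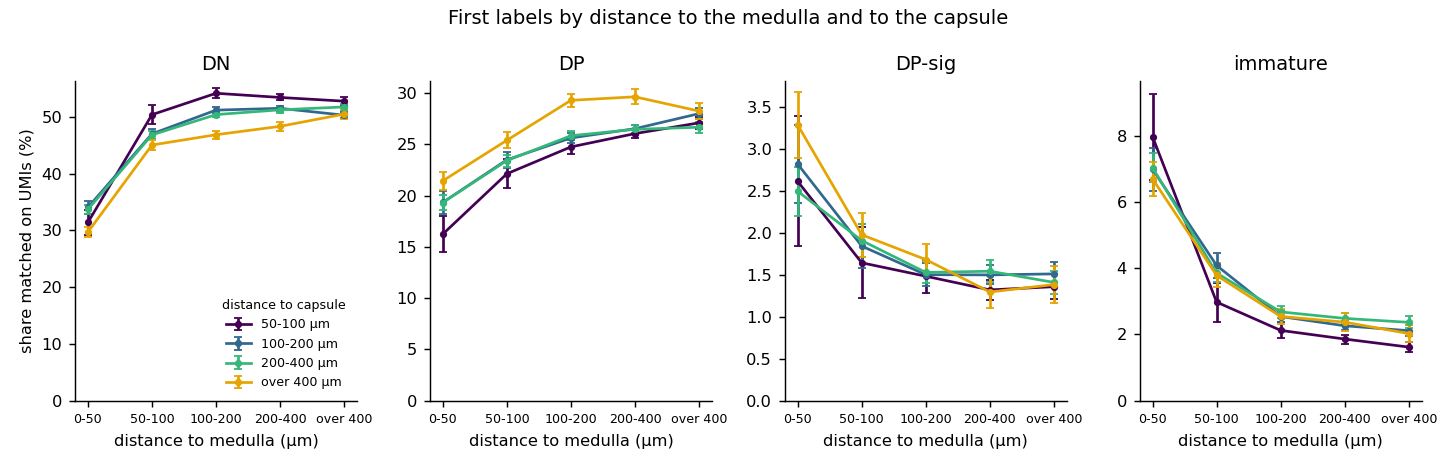
Share matched on UMIs (%) of DN, DP, DP-sig and immature first labels, against distance to the nearest medullary bin (µm), with 1 line per distance to the capsule and 95% intervals for counting error. The lines for the immature labels lie close together, between 6.69% and 7.97% within 50 µm of the medulla and between 1.62% and 2.37% beyond 400 µm.

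With UMIs and distance to the medulla matched together, depth differences became smaller for most labels. The ratio of the deepest to the outermost step was then 0.906 (0.895 to 0.917) for DN, 1.13 (1.05 to 1.23) for the immature labels, 1.09 (0.995 to 1.20) for DP-sig and 1.10 (1.06 to 1.14) for Pre DP-sig. DP went the other way, to 1.13 (1.11 to 1.15). DP-P stood at 1.06 (0.983 to 1.14), against 0.993 matched on UMIs alone, and both intervals hold 1. Within the bins at 200 to 400 µm from the medulla, the DN share was 53.4% in the outermost and 48.3% in the deepest step, a ratio of 0.905 (0.888 to 0.922). Within 50 µm of the medulla it was 31.4% and 29.7%, and the interval of the ratio, 0.875 to 1.02, holds 1. There the immature share was 7.97% in the outermost and 6.69% in the deepest step, a ratio of 0.840 (0.702 to 1.01), whose interval also holds 1. In the other 4 steps of distance to the medulla the immature ratio was above 1, at 1.27 (1.02 to 1.58), 1.20 (1.04 to 1.39), 1.27 (1.11 to 1.46) and 1.25 (1.06 to 1.47) from near to far. The part of nearness to the medulla in the differences by depth was not tested beyond these values.

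Relative position combined both distances. Each bin was placed on a line from capsule to medulla by the share of its distance to the capsule in the sum of both distances, and the line was divided into 5 equal stretches. The matched DN share was 52.4%, 51.9%, 51.0%, 48.4% and 36.3% from the capsular to the medullary stretch. The immature share was 1.76%, 2.19%, 2.47%, 3.06% and 5.59%. Both differed most between the last stretch and the one before it. DP-P was 2.54% in the stretch next to the capsule and between 2.10% and 2.24% in the others.

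The order of DN and immature labels did not hold in every part of the section. In tiles of 1 mm, each with at least 200 labelled bins in both steps, the matched ratio of deepest to outermost was computed within the tile. Of 38 tiles, DN was lower in the deepest step in 27, with a median ratio of 0.890 and a range of 0.439 to 1.53. Immature labels were higher in 31, with a median of 1.71 and a range of 0.526 to 6.57, and DP-sig in 28, with a median of 1.27. DP was higher in 20, Pre DP-sig in 21 and DP-P in 14. Tiles hold few bins, so their own counting error is large, and tiles of 1 section are not replicates. For DN the tile's own interval lay below 1 in 19 tiles, above 1 in 5 and held 1 in 14. The DN ratio was 0.930 (0.913 to 0.947) left and 0.753 (0.742 to 0.763) right of the median x coordinate, and the immature ratio 1.85 (1.67 to 2.05) and 1.46 (1.34 to 1.60).

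**Figure D5:**
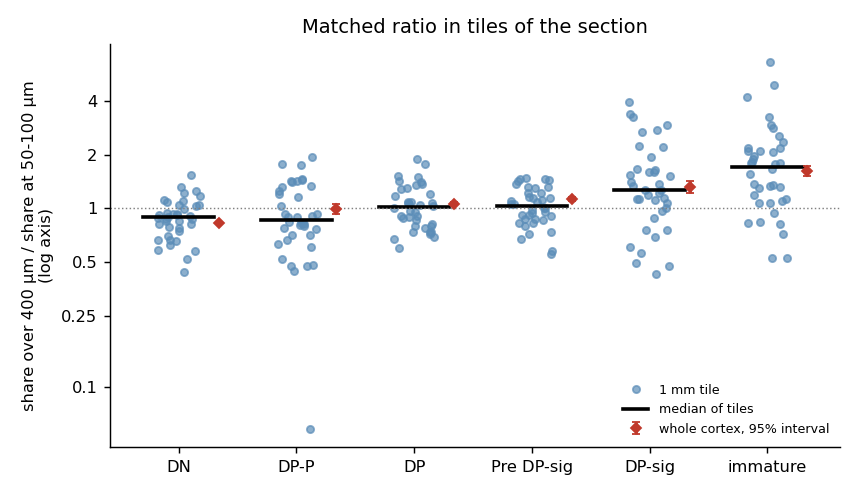
Ratio of the share over 400 µm to that at 50 to 100 µm, matched on UMIs, on a log axis, with 1 blue point per 1 mm tile of the section (38 tiles), the median of the tiles as a black bar and the whole-cortex ratio with its 95% interval as a red diamond. Tiles scatter on both sides of 1 for every label, with medians of 0.890 for DN and 1.71 for immature.

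A second table of the same section follows segmented cells. It held a label on 61.5% of cortex cell bins at 50 to 100 µm and on 74.8% over 400 µm. The matched DN share was 47.2%, 44.6%, 40.6% and 36.6% from the outermost step inwards, a ratio of 0.775 (0.765 to 0.785). In segmented cells, too, DN was far more frequent than in the thymocyte library (4.56% of annotated cells). These shares are therefore not read as shares of cells. The immature share was 3.27%, 4.31%, 5.52% and 5.47%, a ratio of 1.67 (1.59 to 1.76). DP-sig was at 1.20 (1.12 to 1.30). DP and Pre DP-sig lay on the other side of 1 from the bins of 20 units, at 0.836 (0.820 to 0.853) and 0.923 (0.892 to 0.956), and DP-P was at 0.890 (0.844 to 0.940). Labelled cell bins were larger in area near the capsule, with a median deposited area of 240 at 50 to 100 µm and 205 over 400 µm.

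Detached fragments had fewer UMIs, another makeup as counted, and little weight in the ratios. The 1335 labelled bins of fragments in the deepest step had a median of 121 UMIs, with DN on 13.5% (11.7 to 15.4) and DP on 45.2%, as counted. In the largest piece the deepest step had a median of 338 UMIs and a DN share of 46.4%, also as counted. In the lowest UMI stratum of the deepest step as a whole, fragments included, DN stood at 21.3% and DP at 39.5%. Fragments and largest piece were not compared at matched UMIs. Without the fragments the matched DN ratio was 0.840, and without all bins nearer to the outside than to the drawn capsule it was 0.825. The immature ratio was 1.63 both ways.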

How the data were processed

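The authors deposited, for each bin of the section, counts of UMIs and genes, coordinates, the region, the distance to the capsule and up to 3 labels of robust cell-type decomposition (RCTD). Label weights are fractions given by the authors, blank for bins with 1 label and taken as 1. The deposited medullary scores and the deposited percent of mitochondrial UMIs were not used in any comparison of labels. Both mean scores were higher in labelled bins of the medulla (0.0608 and 0.0599) than of the cortex (-0.0647 and -0.0440). Whether the authors drew the medullary areas from such scores was not checked. Label shares by distance to the medulla may therefore not be independent of how it was drawn. For the thymocyte library the deposited UMI counts per gene were used. The submitters' processing notes name Cell Ranger 8.0.0, Seurat 5.3.0 and mRatBN7.2. How the section was aligned is not given in the sources used here.

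Distances were converted at a nominal 0.5 µm per unit. Shares are of labelled cortex bins, with exact Clopper-Pearson intervals. Matched shares were standardised directly over 10 strata of UMIs with normal intervals, and ratios have log-normal intervals. Neighbouring bins share tissue and diffused RNA, so the true uncertainty is larger. Medullary distance is to the nearest bin of the authors' medullary areas. Ratios within tiles used 5 strata of UMIs. Matching on UMIs and tile used 3, which is coarser than the 10 strata of the main values. Named genes are the first 4 of each marker list with at least 20 UMIs, of which the text gives a part, and Cd34. Results on some listed genes are not reported here. The members and lists were chosen with earlier results of these data known. The matching was tested on simulated bins, drawn independently, whose label probability depended only on the UMI stratum and the step. That test cannot show effects of UMI differences within a stratum, of neighbouring bins or of nearness to the medulla. Alternatives added after seeing the data were the largest piece of tissue, the bins at the outer edge left out, other outermost and deepest steps, matching also on medullary distance or tile, confident labels and a total from DN to DP-sig. Tables were handled in pandas 2.3.3 under Python 3.11.15, intervals came from SciPy 1.17.1, and plots from matplotlib 3.10.9.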

Additional observations from a re-analysis of the deposited data

How the results depend on the processing

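The ratio of the deepest to the outermost step was recomputed under 107 alternatives, of which 48 stayed within the interval for counting error, 51 moved beyond it and 8 turned the direction of a ratio whose interval excludes 1. The DP-P ratio, whose interval holds 1, was above 1 in 6 of 18 alternatives and below it in 12. The DN ratio was below 1 in 18 of 18 (0.753 to 0.956) and the immature ratio above 1 in 17 of 17 (1.13 to 2.11). Without matching on UMIs the ratios were 0.956 for DN, 0.775 for DP-P, 0.901 for DP, 0.979 for Pre DP-sig, 1.05 for DP-sig and 1.40 for immature. With thymocyte labels as the total DN was 0.843, and in bins given 1 label DN was 0.888 and Pre DP-sig 1.17. In cell bins the ratios were 0.775 for DN, 0.890 for DP-P, 0.836 for DP, 0.923 for Pre DP-sig and 1.20 for DP-sig. Left of the median x coordinate they were 0.930 for DN, 0.894 for DP, 1.02 for Pre DP-sig, 1.16 for DP-sig and 1.85 for immature, and right of it 0.753, 1.28, 1.26, 1.49 and 1.46. Over 100 µm from the medulla they were 0.904 for DN, 1.11 for DP, 1.11 for DP-sig and 1.30 for immature. In bins at or above the median UMIs they were 0.828 for DP-P, 1.01 for DP, 1.17 for Pre DP-sig, 1.91 for DP-sig and 1.88 for immature. The following were chosen after seeing the data. Without bins nearer to the outside than to the drawn capsule DP was 1.08. With the capsular area as the outermost step the ratios were 0.881 for DN, 0.871 for DP-P, 1.03 for DP and 1.18 for Pre DP-sig, and with 200 to 400 µm as the deepest 0.895 for DN, 0.968 for DP, 1.04 for Pre DP-sig and 1.21 for DP-sig. Matched on UMIs and distance to the medulla they were 0.906 for DN, 1.13 for DP, 1.09 for DP-sig and 1.13 for immature, and matched on UMIs and tile 0.911 for DN, 0.974 for DP, 1.03 for Pre DP-sig and 0.992 for DP-sig. With confident first labels they were 0.844 for DN, 1.10 for DP-P, 1.14 for DP, 1.26 for Pre DP-sig, 2.07 for DP-sig and 2.11 for immature, and with DN to DP-sig as the total 0.902 for DN, 1.11 for DP and 1.18 for Pre DP-sig. The cause of these changes was not tested. A first step of 0 to 25 µm was not run, since the cortex has 0 bins there. No paired analysis was possible because the section is 1 sample. With 1 section, the spread between animals is unknown, and bins without a label were left out of every share.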
